A study of Mus musculus with 11 samples.

Results

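The FOXO targets and quiescence genes described here are 10 genes, Foxo1, Foxo3, Pik3ip1, Txnip, Ddit4, Sesn1, Sesn3, Btg1, Btg2 and Tob1, chosen by name from a table of 32469 gene symbols. All 10 were found in the table, and 7 of them passed the filter on low counts that 6949 genes of the table passed. Precursor exhausted CD8+ T cells were sorted by a surface pattern that included PD-1+Ly108+TIM-3- from tumors of Lewis lung carcinoma (LLC), a transplantable line that arose in a C57BL/6 mouse. LLC cells had been placed under the skin of both flanks, 500000 by the study's methods, which do not say per flank or per mouse. The mice were wild-type C57BL/6, females of 8 weeks by the same methods. Of these mice, 6 received 200 µg of the anti-LAG-3 antibody C9B7W (aLAG3) into the peritoneum on day 14 and again on day 16, and 5 were left untreated. A bulk RNA-seq library was read from each mouse. For the later tumor excision, the labels give day 21 and the methods day 18, and for the earlier one both give day 14. No mouse received a control antibody, so the antibody and the act of injection cannot be told apart.

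FOXO proteins are transcription factors that sit in the nucleus while PI3K and AKT signaling is low, and that leave it when AKT phosphorylates them. In resting and memory T cells they keep genes for survival, homing and rest switched on, and in CD8+ T cells FOXO1 sustains the stem-like state that precursor exhausted cells share. The other members are brakes that act beside them: PIK3IP1 restrains PI3K, DDIT4 and the sestrins restrain the growth kinase complex mTORC1, TXNIP restrains glucose uptake, and BTG1, BTG2 and TOB1 bring the deadenylase complex to mRNAs and hold lymphocytes out of the cell cycle.

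The untreated libraries held 317449 to 1271063 counts and the aLAG3 libraries 313524 to 1901374. Depth moved with the primer barcode given in the labels. The deeper libraries carried barcode 9 (3 untreated, 3 aLAG3), the shallower ones barcode 8 (1 untreated, 3 aLAG3) or barcode 10 (1 untreated). An index, also in the labels, was shared by some libraries and entered no fit. Index S37 was that of untreated libraries 2 and 3 and aLAG3 library 10, and S36 that of untreated libraries 4 and 5. A count of 0 allows a level of up to 3 counts, which was 1.65 counts per 1000000 (CPM) in the deepest library and 10.1 CPM in the shallowest. Such limits cover counting error only, since reads amplified by PCR were counted without molecular identifiers. Cd8a, a gene of the CD8 co-receptor, was at 1191 ± 31.2 CPM (SD, n = 5) without and 1206 ± 90.6 CPM (SD, n = 6) with the antibody, and Pdcd1, which codes for PD-1, at 716 ± 71.8 and 605 ± 101.2 CPM (log2 fold change -0.24 ± 0.097 SE, unadjusted p = 0.0214 and adjusted p = 0.999 by edgeR's quasi-likelihood test). Slamf6, the gene of Ly108, was at 111 ± 10.6 and 97.5 ± 14.2 CPM, and Lag3, the gene of the antibody's target, at 499 ± 31.7 and 490.1 ± 59.5 CPM. Havcr2, the gene of TIM-3, against which the cells were sorted, had 0 to 7 counts per library. That was 19.8 CPM in untreated library 2, from 6 counts, and 0 to 7.08 CPM in the other libraries. Among markers of other cells, S100a8 and S100a9 of neutrophils were at 0 in every library. Of the 6 dendritic cell markers Clec9a was at 0 and the others were detected, and the list summed to 12.3 to 31.8 CPM in untreated and 9.57 to 22.5 CPM in aLAG3 libraries. The 10 myeloid markers, S100a8 and S100a9 included, summed to 22.1 to 53.0 CPM in untreated and 22.5 to 140 CPM in aLAG3 libraries. In the same order, the 7 B cell markers summed to 69.7 to 106 and 54.2 to 109 CPM. The 5 NK cell markers summed to 231 to 314 and 201 to 329 CPM. For 9 tumor and stroma markers it was 140 to 214 and 155 to 214 CPM, and for 5 erythroid markers 0 to 1.57 and 0 to 12.8 CPM. Most of the B cell, NK cell and stroma sums came from Ighm, Klre1 and Pecam1. The part of these markers in the results was not tested.

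Binding letters of FOXO factors were looked for near the members' starts, to show what the members share beyond their names. RefSeq windows (build GRCm38.p6) running from 250 bases before to 50 bases after a transcript start were found for all 10 members, 11 windows in all, as Sesn1 has a pair. GTAAACA, the core of the FOXO binding element, was searched on both strands and stood in 1199 of 32851 windows of this length (3.65%) and in 3 of the 11 member windows. The related ATAAACA, which differs from it in the first letter so that both cannot start at the same base, stood in 1510 windows (4.60%) and in 0 member windows. The 3 matches are printed 5′ to 3′ on the plus strand, which is the strand of all 3 genes, with the matching letters in capitals. TGTTTAC is the same motif read on the other strand.
Txnip, chr3:96557811-96557867: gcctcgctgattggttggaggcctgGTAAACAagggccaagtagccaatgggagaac
Btg1, chr10:96616772-96616828: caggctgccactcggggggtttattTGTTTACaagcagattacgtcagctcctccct
Sesn1, chr10:41810585-41810613: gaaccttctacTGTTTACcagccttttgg
The Txnip match began 121 bases before the start, the Btg1 match 204 bases before it and the Sesn1 match 22 bases after it. A match of these letters is a description of the window, and binding was not measured here.

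Across all genes, the aLAG3 and untreated libraries differed in 0 of 6949 genes at an adjusted p under 0.05 (0%, edgeR's quasi-likelihood test, Benjamini-Hochberg adjusted), and 0 of the 7 members that passed the filter did. At an unadjusted p under 0.05 the same test called 259 genes (3.73%) and 0 members, while DESeq2 called 163 genes and a likelihood ratio test 307, again with 0 members. The CPM ranges of the groups did not overlap in 33 genes (0.475%), and in 0 of the 7 members. Of these 7, 5 had a fitted log2 fold change above 0 and 2 below, with a median of 0.029 beside 0.0045 over all genes tested. The 95% intervals of the members reached from a fold of 0.763 at the lowest, for Tob1, to 1.45 at the highest, for Foxo1, and each of the 7 intervals included a fold of 1. Within the 6 libraries of barcode 9 alone, the log2 fold change was 0.17 for Foxo1, 0.13 for Txnip, 0.16 for Ddit4, -0.20 for Sesn3, 0.020 for Btg1, 0.0010 for Btg2 and 0.017 for Tob1. Within barcode 8, with 1 untreated and 3 aLAG3 libraries, the difference in mean log2 CPM was 0.24 for Foxo1, 0.020 for Txnip, -0.0089 for Ddit4, 0.079 for Sesn3, 0.61 for Btg1, 0.020 for Btg2 and -0.28 for Tob1, with no spread to be had for the untreated library. Barcode 10 holds an untreated library only. Since these are bulk libraries, fewer cells of a type and less RNA per cell cannot be told apart.

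**Figure D1:**
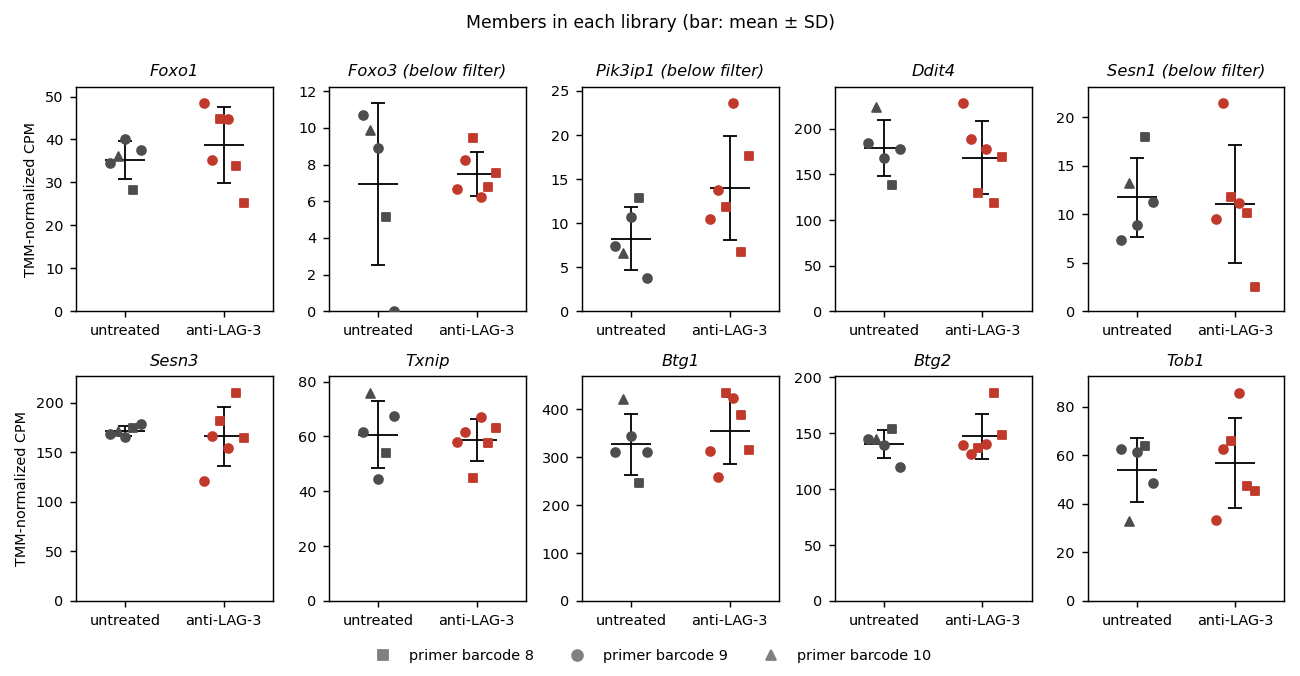
Each panel plots one member's level in each library as TMM-normalized CPM on a linear axis from 0, with untreated libraries (n = 5) in grey and aLAG3 libraries (n = 6) in red. Marker shapes give the primer barcode, and the black bars are the mean ± SD. In all 10 panels the ranges of the groups overlap.

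Foxo1 (chr3:52268336-52353221, GRCm38, plus strand) codes for the main FOXO factor of T cells. Its level in the untreated libraries 1 to 5 was 34.5, 36.3, 40.05, 28.2 and 37.5 CPM. In the aLAG3 libraries the lowest was 25.2, the median 39.9 and the highest 48.4 CPM. The aLAG3 group held both the lowest and the highest library, and the untreated range lay inside its range. The means were 35.3 ± 4.47 (SD, n = 5) and 38.7 ± 8.79 CPM (SD, n = 6), and the fitted log2 fold change was 0.14 ± 0.19 (SE, 95% interval -0.25 to 0.54, adjusted p = 0.999 by edgeR's quasi-likelihood test, Benjamini-Hochberg adjusted). Of its 50-base transcript stretches, 6.80% are found in 10 other genes too, among them the antisense gene Gm20402. How reads from these stretches were assigned is not known, so the Foxo1 level is uncertain.

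Foxo3 (chr10:42181841-42276755, minus strand), the other FOXO factor among the members, was near the limit of detection. The untreated libraries 1 to 5 held 13, 3, 10, 2 and 0 counts, and the aLAG3 libraries 6 to 11 held 7, 15, 4, 5, 2 and 3. The single 0, in untreated library 5, allows up to 5.63 CPM, and the other 10 libraries lay between 5.12 and 10.7 CPM. The mean log2 CPM was higher by 0.28 in aLAG3 libraries (two-sided exact permutation test, p = 0.710, where the smallest p this design allows is 0.00216). The sign turned without untreated library 5, to -0.14, and in the fit of all genes with 1 or more counts, to -0.011. Foxo4 had 1 to 6 counts per library and was not tested.

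Pik3ip1 (chr11:3330401-3342971, plus strand), a membrane protein that restrains PI3K, had the largest difference in mean log2 CPM among the 10 members, on few counts. The untreated libraries held 9, 2, 12, 5 and 2 counts and the aLAG3 libraries 11, 25, 5, 19, 2 and 7, in sum 30 and 69. Scaled for depth, this gave 7.39, 6.59, 10.7, 12.8 and 3.75 CPM in the untreated libraries. The aLAG3 libraries ran from 6.76 over a median of 12.8 to 23.6 CPM. The 3 highest libraries were aLAG3 libraries, the lowest was untreated, and the ranges overlapped. The means were 8.24 ± 3.55 (SD, n = 5) and 14.0 ± 5.92 CPM (SD, n = 6), and the mean log2 CPM differed by 0.60 (two-sided exact permutation test, p = 0.0823).

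The difference in Pik3ip1 was not the same within the barcodes. Within barcode 9 the means were 7.27 CPM in 3 untreated and 15.9 CPM in 3 aLAG3 libraries, a log2 difference of 0.97 when the libraries were scaled on their own (two-sided exact permutation test, p = 0.200, where 3 against 3 cannot go below 0.10). Within barcode 8 the only untreated library had 12.8 CPM and the 3 aLAG3 libraries a mean of 12.1 CPM. Without untreated library 4 the exact permutation test gave p = 0.0476 with a log2 difference of 0.75, and without aLAG3 library 10 it gave p = 0.0397 with 0.76. Leaving out each of the other 9 libraries gave p from 0.0810 to 0.190 in the same exact permutation test, with the smallest difference, 0.43, without untreated library 5. When the filter on low counts was dropped, edgeR's quasi-likelihood test over 24024 genes gave a log2 fold change of 0.78 with an unadjusted p of 0.0417 and an adjusted p of 0.722. Of the 50-base stretches of Pik3ip1, 0.966% occur in the antisense gene Gm12592.

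**Figure D2:**
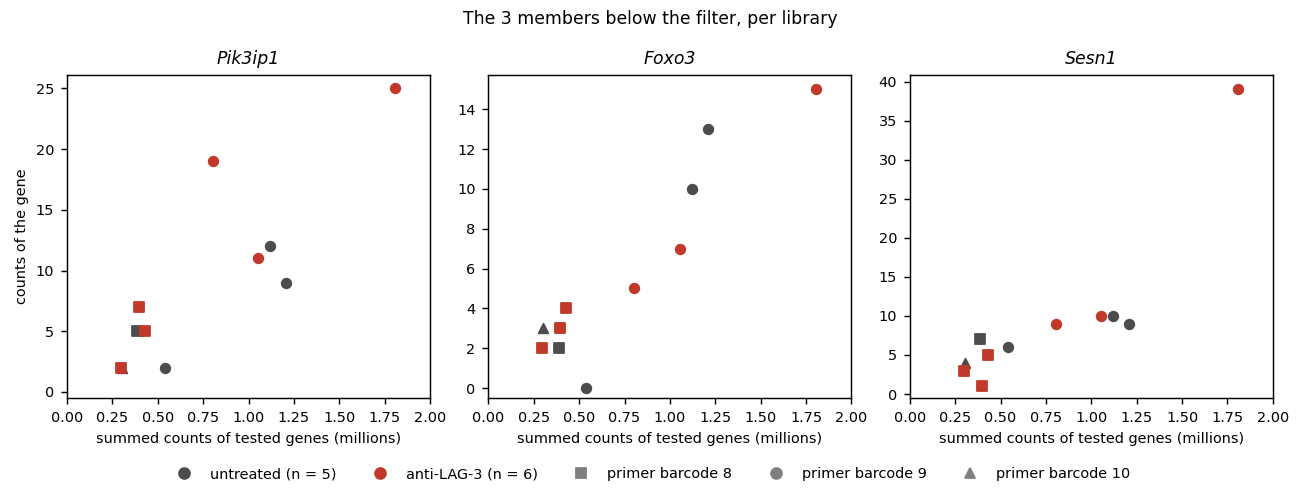
Counts of the 3 members below the filter are plotted against the summed counts of all tested genes in each library, with untreated libraries in grey, aLAG3 libraries in red and marker shapes for the primer barcode. The deepest library, aLAG3 library 7, holds 25 counts of Pik3ip1, 15 of Foxo3 and 39 of Sesn1, while the 5 shallowest libraries hold 1 to 7 counts of each.

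Ddit4 (chr10:59949669-59951834, minus strand) codes for a stress-induced protein, also called REDD1, that lowers mTORC1 activity through the TSC complex. It belongs to the expansion signature that the study drew from single-cell data. The untreated libraries 1 to 5 were at 185, 224, 168, 138 and 178 CPM. The aLAG3 libraries had a lowest value of 118, a median of 173 and a highest of 228 CPM. Both the lowest and the highest library were aLAG3 libraries, and the untreated range lay inside theirs. With means of 179 ± 31.0 (SD, n = 5) and 168 ± 40.02 CPM (SD, n = 6), the fitted log2 fold change was -0.013 ± 0.14 (SE, 95% interval -0.29 to 0.27, adjusted p = 0.999 by edgeR's quasi-likelihood test, Benjamini-Hochberg adjusted).

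The Ddit4 level moved with the primer barcode. Over both groups the mean was 139 CPM in the 4 libraries of barcode 8, 187 CPM in the 6 libraries of barcode 9, and 224 CPM in the single library of barcode 10. Within barcode 9 the log2 fold change between the groups was 0.16, and with the barcode as a covariate 0.13, where the single barcode 10 library adds nothing to the difference. Both values have the opposite sign to the pooled one. The part of the barcode and of the depth that goes with it in these levels was not tested.

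The sestrins bind the GATOR2 complex and keep mTORC1 from amino acid signals. Sesn3 (chr9:14275067-14333101, plus strand), a known FOXO target, stood at 168, 171, 166, 174 and 178 CPM in the untreated libraries. The aLAG3 libraries ran from 121 over a median of 165 to 210 CPM. The 5 untreated libraries lay within a narrow band, and aLAG3 libraries lay on both sides of it. The SD was 4.94 CPM around a mean of 172 CPM in untreated libraries and 29.6 CPM around 166 CPM in aLAG3 libraries. The untreated levels rest on 205, 52, 186, 68 and 95 counts, on which counting error alone usually gives a wider spread. The narrow band is thus no measure of how untreated mice vary, and the contrast in spread was not tested. The fitted log2 fold change was -0.082 ± 0.12 (SE, 95% interval -0.32 to 0.16, adjusted p = 0.999 by edgeR's quasi-likelihood test, Benjamini-Hochberg adjusted).

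Sesn1 (chr10:41809935-41908424, plus strand), another sestrin and FOXO target, held 9, 4, 10, 7 and 6 counts in the untreated libraries and 10, 39, 5, 9, 3 and 1 in the aLAG3 libraries. Of its 103 counts, 39 came from aLAG3 library 7, the deepest, where they amounted to 21.4 CPM, the highest level of all. The lowest level, 2.52 CPM, was also in an aLAG3 library and rested on a single read. The mean log2 CPM differed by -0.15 between the groups (two-sided exact permutation test, p = 0.719). The sign turned in places, as the difference was 0.099 without aLAG3 library 11, which holds the single read, 0.47 within barcode 9 and 0.33 in the fit of all genes with 1 or more counts. Within barcode 8, with its 1 untreated library, it kept its sign at -1.06.

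TXNIP binds thioredoxin and pulls glucose carriers from the cell surface, and its gene (chr3:96557957-96561883, plus strand) is read when glucose products are plentiful. Txnip was at 61.6, 75.8, 44.5, 53.8 and 67.5 CPM in the untreated libraries. The aLAG3 libraries ran from 44.8 over a median of 59.7 to 67.0 CPM, wholly inside the untreated range. The means were 60.6 ± 12.1 (SD, n = 5) and 58.6 ± 7.63 CPM (SD, n = 6), whereas the fit, which gives deeper libraries more weight, put the log2 fold change at 0.024 ± 0.16 (SE, 95% interval -0.31 to 0.35, adjusted p = 0.999 by edgeR's quasi-likelihood test, Benjamini-Hochberg adjusted). Txnip shares 15.7% of its 50-base stretches with the overlapping antisense gene Gm15441. How many of its counts came from that stretch is not known, so its level is uncertain.

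Among the BTG and TOB genes, Btg1 (chr10:96617006-96622809, plus strand) was at 311, 422, 344, 246 and 311 CPM in the untreated libraries. The aLAG3 libraries had a lowest value of 259, a median of 352 and a highest of 434 CPM. The lowest library was untreated and the highest aLAG3, with the second highest aLAG3 library and the highest untreated one at 423 and 422 CPM. The means were 327 ± 63.9 (SD, n = 5) and 356 ± 70.1 CPM (SD, n = 6), and the fitted log2 fold change was 0.11 ± 0.13 (SE, 95% interval -0.15 to 0.37, adjusted p = 0.999 by edgeR's quasi-likelihood test, Benjamini-Hochberg adjusted). Within barcode 9 the means were 322 and 332 CPM, and within barcode 8 the untreated library had 246 CPM beside a mean of 379 CPM in 3 aLAG3 libraries. Btg1 shares 2.49% of its 50-base stretches with Gm14519.

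Btg2 (chr1:134075170-134079120, minus strand), which is induced by p53 and by T cell stimulation, was at 145, 145, 140, 154 and 120 CPM in the untreated libraries. In the aLAG3 libraries the lowest value was 132, the median 140 and the highest 186 CPM. Apart from the highest library, aLAG3 library 10, all libraries lay between 120 and 154 CPM. The fitted log2 fold change was 0.036 ± 0.11 (SE, 95% interval -0.20 to 0.27, adjusted p = 0.999 by edgeR's quasi-likelihood test, Benjamini-Hochberg adjusted), from means of 141 ± 12.5 (SD, n = 5) and 147 ± 19.8 CPM (SD, n = 6).

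Tob1 (chr11:94211454-94215495, plus strand), which was found as a gene that resting T cells keep on and lose upon activation, was at 62.4, 33.0, 61.4, 64.0 and 48.8 CPM in the untreated libraries. The aLAG3 libraries ran from 33.2 over a median of 55.0 to 85.7 CPM. Each group held a library near 33 CPM, and the highest was an aLAG3 library. The means were 53.9 ± 13.2 (SD, n = 5) and 56.7 ± 18.6 CPM (SD, n = 6), with a fitted log2 fold change of 0.029 ± 0.20 (SE, 95% interval -0.39 to 0.45, adjusted p = 0.999 by edgeR's quasi-likelihood test, Benjamini-Hochberg adjusted). Of the 7 tested members Tob1 had the widest interval.

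**Figure D3:**
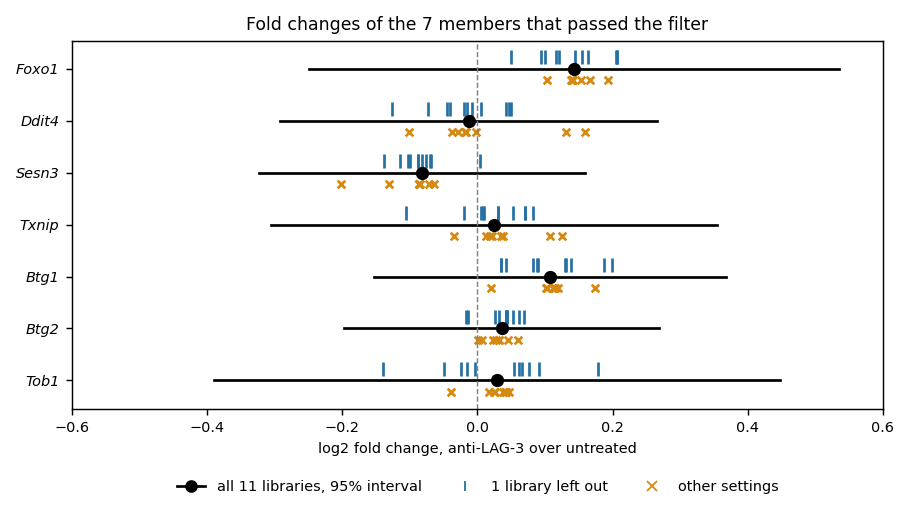
Black points and lines give the fitted log2 fold change (aLAG3 over untreated) and its 95% interval for the 7 members that passed the filter, blue ticks the value with 1 library left out, and orange crosses the value under each other setting. All 7 intervals include 0, from -0.39 for Tob1 to 0.54 for Foxo1.

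The members differed from each other in how much they varied between libraries, whatever the group. The counts of each gene over the 11 libraries were set against shares of the library size by a chi-square statistic divided by its degrees of freedom, which is near 1 for counting error alone and grows with added variation. Btg1 had 8.63, and 28 of the 500 tested genes nearest to it in mean count had more, with a median of 2.16 among them. Ddit4 had 3.44 (median of its 500 neighbours 1.71, with 66 above) and Tob1 2.96 (median 1.38, with 48 above). These 3 genes thus varied more than most genes of like count.

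Btg2, with 0.784, and Foxo1, with 0.821, were at the level of counting error, and 452 and 416 of their 500 neighbours had more. Txnip, with 0.911, also lay below the median of its neighbours, 1.38. Sesn3 had 1.85 beside a median of 1.69. Of the members below the filter, Sesn1 had 2.08, Pik3ip1 1.77 and Foxo3 0.694, each beside a median of 1.28 in the 500 tested genes nearest in mean count, which are all above them in count.

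**Figure D4:**
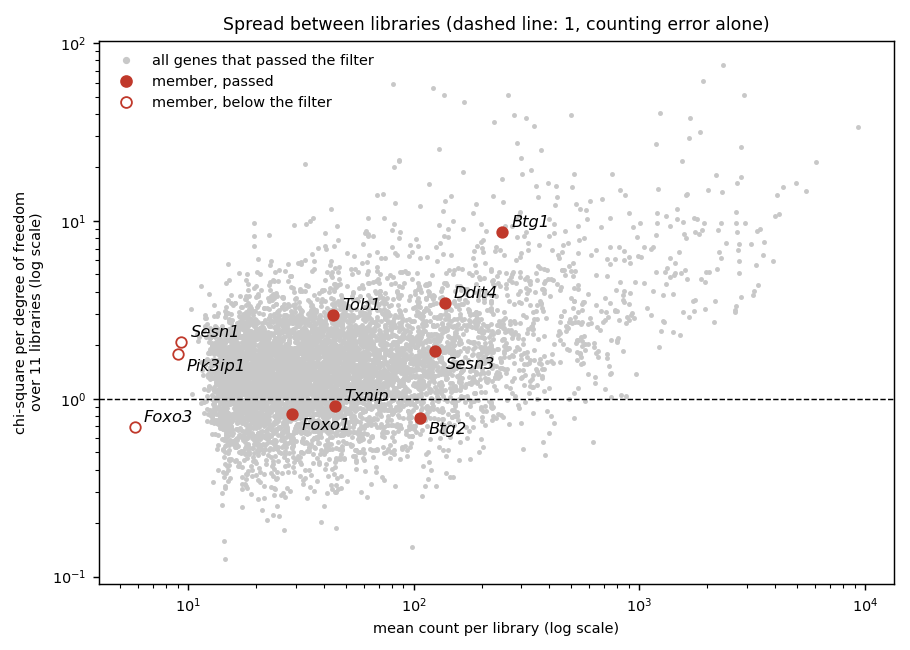
Chi-square per degree of freedom over the 11 libraries is plotted against the mean count per library, both on log axes, for all genes that passed the filter (grey), the 7 members that passed (filled red) and the 3 that did not (open red). Btg1 (8.63), Ddit4 (3.44) and Tob1 (2.96) lie high in the cloud, while Btg2 (0.784), Foxo1 (0.821), Txnip (0.911) and Foxo3 (0.694) lie under the dashed line at 1.

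From library to library, the tested members moved with each other in some pairs and against each other in others. Over the 21 pairs of the 7 tested members, Pearson's r of log2 CPM across the 11 libraries ran from -0.73 to 0.55 with a median of -0.093, and 9 pairs were above 0. These values are descriptions of libraries that differ in primer barcode and depth, and were not tested. The highest pair was Txnip and Ddit4 (r = 0.55, Spearman's rho = 0.58). The lowest was Ddit4 and Sesn3, 2 brakes on mTORC1 (r = -0.73, rho = -0.55), and r was -0.54 over 9 libraries when aLAG3 libraries 8 and 10, the farthest from the median of Ddit4, were left out. Ddit4 and Sesn3 also moved in opposite directions with depth, with r of 0.45 and -0.52 between log2 CPM and the log2 total count.

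Among the members with a median of at least 50 counts, Ddit4 had the largest SD of log2 CPM over the 11 libraries (0.29). The tested genes most like it over these libraries were Krtcap2, a subunit of the enzyme that attaches N-glycans (r = 0.94, rho = 0.82), Cdc25b, a phosphatase that activates cyclin-dependent kinases (r = 0.92, rho = 0.84), and Chrac1, a histone-fold protein of chromatin remodeling (r = 0.91, rho = 0.88). With 6942 genes to choose from, 39 had an r above 0.8 and the 95th percentile of r was 0.62.

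The genes around the members were read from lists of their pathways, with 0 genes past the adjusted threshold in any list by edgeR's quasi-likelihood test, Benjamini-Hochberg adjusted. Of 21 genes of the PI3K and AKT arm that sets FOXO phosphorylation (kinases, their regulatory subunits and phosphatases), 12 were tested, 6 with a fold change above 0 and 6 below (median log2 fold change -0.0053). The catalytic subunit Pik3cd was at 67.9 ± 7.53 CPM (SD, n = 5) without and 72.4 ± 15.8 CPM (SD, n = 6) with the antibody. No gene of this list passed an unadjusted p of 0.05.

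Of 24 other FOXO targets, 20 were tested, 8 with a fold change above 0 and 12 below (median log2 fold change -0.024), and 0 had an unadjusted p under 0.05. The homing receptor Ccr7 was at 2148 ± 181 CPM (SD, n = 5) without and 2142 ± 345 CPM (SD, n = 6) with the antibody. The survival receptor Il7r was at 252 ± 46.2 and 240 ± 36.8 CPM, and Cdkn1b, the cell cycle inhibitor p27, at 199 ± 21.7 and 197 ± 22.5 CPM. The death gene Bcl2l11 had the lowest log2 fold change of the list, -0.33 ± 0.17 (SE), with 96.3 ± 17.4 and 76.7 ± 17.9 CPM and an unadjusted p of 0.0581 by edgeR's quasi-likelihood test.

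Of 32 genes that control mTORC1 (among them sestrin, GATOR, TSC, AMPK, Ragulator and complex subunits), 15 were tested, 7 above 0 and 8 below, and none at an unadjusted p under 0.05 (median log2 fold change -0.16). Ddit4l, the paralog of Ddit4, was at 0 in every library, and Sesn2, Tsc1, Tsc2 and Mtor stayed below the filter. The lowest log2 fold change was that of Rraga, a GTPase that brings mTORC1 to lysosomes, at -0.37 ± 0.18 (SE), with 59.2 ± 10.7 CPM (SD, n = 5) without and 43.8 ± 12.4 CPM (SD, n = 6) with the antibody. Of 13 genes around TXNIP, 9 were tested, 5 above 0 and 4 below (median 0.0090), and thioredoxin itself, Txn1, was at 766 ± 50.6 and 760 ± 47.7 CPM.

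Of 18 further BTG and TOB genes, deadenylase subunits and poly(A)-binding proteins, 17 had a row in the table and 14 were tested, 6 above 0 and 8 below (median log2 fold change -0.036). Of these, 1 had an unadjusted p under 0.05 by edgeR's quasi-likelihood test, the deadenylase Cnot6l. Its untreated libraries were at 90.3, 112, 87.2, 82.0 and 80.7 CPM, and its aLAG3 libraries ran from 61.5 to 96.8 CPM, overlapping them (log2 fold change -0.30 ± 0.15 SE, unadjusted p = 0.0466, adjusted p = 0.999). Tob2 was at 149 ± 11.998 CPM (SD, n = 5) and 150 ± 17.7 CPM (SD, n = 6).

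Of 20 other genes known to keep T cells at rest, 17 were tested, 7 above 0 and 10 below (median log2 fold change -0.038), with 2 higher and 1 lower at an unadjusted p under 0.05 by edgeR's quasi-likelihood test and none past the adjusted threshold. Over all 6949 genes, 3.73% had such a p and 48.9% had a fold change below 0. Klf4, a factor that restrains CD8+ T cell division, was at 18.9, 9.89, 23.1, 15.4 and 18.8 CPM in untreated libraries and from 18.1 to 49.7 CPM in aLAG3 libraries (log2 fold change 0.64 ± 0.29 SE, unadjusted p = 0.0353, adjusted p = 0.999). Klf6 was at 715 ± 102 CPM (SD, n = 5) and 807 ± 83.9 CPM (SD, n = 6), with an unadjusted p of 0.0406. Dgkz, a lipid kinase that dampens T cell receptor signaling, was at 77.2, 85.7, 90.8, 64.0 and 86.3 CPM in untreated libraries and from 42.9 to 74.4 CPM in aLAG3 libraries (log2 fold change -0.41 ± 0.15 SE, unadjusted p = 0.00944, adjusted p = 0.999). The groups overlapped in all 3 genes.

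All 20 cell cycle genes on the list were tested, and 13 had a fold change above 0 and 7 below, with a median log2 fold change of 0.0086. Their summed level ranged from 2254 to 2645 CPM in untreated and from 1958 to 2854 CPM in aLAG3 libraries. The summed level of the 10 members ranged from 856 to 1087 and from 908 to 1079 CPM. For both sums the ranges overlapped.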

How the data were processed

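The authors mapped trimmed reads to reference RNA of GRCm38 and deposited raw counts per gene symbol and library. The submitters' processing notes name cutadapt 4.1 and Bowtie2 2.4.5. Treatment of multi-mapping reads and of strand is not given in the sources used here. From these counts, genes were kept by filterByExpr (17.7 CPM in at least 5 libraries and 15 counts in all), scaled by TMM and tested with edgeR 4.0.16 in R 4.3.3 by the quasi-likelihood test, adjusted after Benjamini and Hochberg, at 0.05. The study's likelihood ratio test and DESeq2 1.42.0 were alternatives. CPM are counts over the TMM-scaled counts of the tested genes. Log2 CPM used a prior count of 2. Members below the filter were compared by an exact permutation test over all 462 assignments of the libraries to the groups. List sums in CPM use library totals. Groups came from the labels, with 1 library per mouse. Sequence sharing came from GENCODE M21 transcripts and promoter windows from RefSeq. The tests were run on simulated counts first. Named beside the members are sort markers, of which 1 is not reported here, up to 3 genes of each pathway list with the smallest unadjusted p under 0.05, and the 3 genes most like the member with the largest SD of log2 CPM among those with a median of at least 50 counts. Other listed genes were chosen as examples after their values were seen. The members and lists were chosen with earlier results of these data known. Totals of 313524 to 1901374 counts limit precision for low genes.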

Additional observations from a re-analysis of the deposited data

Results flagged for a closer look

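The Btg2 level of aLAG3 library 10 stood apart from the other 5 aLAG3 libraries by Dixon's test, at a log2 CPM of 7.56, which is 186 CPM from 55 counts, beside 132 to 149 CPM in the others. Of 20 sets of values tested in this way, a gene in a group each, 1 was flagged, as many as the 1 in 20 that chance gives.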

How the results depend on the processing

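None of the 7 members above the filter passed an adjusted p of 0.05 in the fit of all libraries, in 7 alternatives or with any 1 of the 11 libraries left out. The 3 members below the filter entered only the fit of all genes with 1 or more counts and did not pass there. DESeq2 and the likelihood ratio test were not run for them, and their other values are differences in log2 CPM. Among all genes, 3 passed with every gene of 1 or more counts in the fit (5830405F06Rik, Ccl1 and Plac8), and 0 to 2 passed with a library left out (C2cd4b and Plac8 without aLAG3 library 7). The median log2 fold change of the members was 0.020 to 0.11 over the alternatives and -0.020 to 0.053 with a library left out. Some differences changed sign, and the cause was not tested. With the primer barcode as a covariate, Ddit4 was at 0.13 and Tob1 at -0.039. Within barcode 9, Ddit4 was at 0.16 and Sesn1 at 0.47. As a difference of mean log2 CPM, Txnip was at -0.035. In the fit of all genes with 1 or more counts, Foxo3 was at -0.011 and Sesn1 at 0.33. With a library left out, the values ran from -0.11 to 0.083 for Txnip, -0.13 to 0.050 for Ddit4 and -0.14 to 0.0038 for Sesn3. They ran from -0.018 to 0.069 for Btg2, -0.14 to 0.18 for Tob1, -0.14 to 0.44 for Foxo3 and -0.33 to 0.099 for Sesn1. Without a change of sign, Foxo1 ran from 0.050 to 0.21, Btg1 from 0.035 to 0.20 and Pik3ip1 from 0.43 to 0.76. These 3 also kept their sign in the alternatives run, though the Pik3ip1 difference within barcode 8 was -0.14. Depth limits the 3 members below the filter most, with 64 to 103 counts each over all libraries. No paired analysis was possible because no replicate number is shared between the groups.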
